A study of Rattus norvegicus with 24 samples.

Results

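miR-122 is the microRNA (miRNA) most closely tied to hepatocytes, and here its level was followed in rat peripheral blood mononuclear cells (PBMC). It was selected as the array features whose name is exactly rno-miR-122, which gave 1 of the 677 rat miRNAs on the array, read by 2 probes with 10 spots each on every one of 24 arrays. The choice was made with its signal on these same arrays in view, so its levels and differences are given as a description with no test. Tests are given only for other miRNAs.

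Each array carried RNA from the blood of a female Wistar rat, with 2 arrays in each of 12 groups, and the labels do not say which rat gave which sample. The animals were bled out and killed at sampling, so no group follows the same animals over time. NORA were healthy rats that received no therapy. They were sampled at the time before therapy of the arthritic rats (NORA_T0), at 1 hour (NORA_1h) and at 34 days (NORA_34d). RA were rats with arthritis induced by bovine type II collagen in Freund's adjuvant, sampled before any therapy (RA_T0). The AP, MTX, PLA and ANE groups were arthritic rats too, sampled at 1 hour or 34 days. AP received needle stimulation (mechanical stimulation in the study's wording), MTX the antirheumatic drug methotrexate, and PLA the saline placebo of that drug. ANE was the anaesthesia control, with isoflurane at blood sampling and no other therapy, while ether was used at blood sampling in PLA, AP and MTX. The sources used here do not name the anaesthetic of NORA and RA. For NORA_34d a label line reads 1 hour while the title and another line read 34 days, and 34 days was used.

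miRNAs are short RNAs that guide Argonaute proteins to messenger RNAs that pair with the miRNA's seed, and thereby lower the output of those messages. miR-122 is made in hepatocytes in very large amounts, where it takes part in cholesterol and lipid metabolism, and it is low or absent in most other cells. It also circulates in plasma, where it is widely used as a marker of liver injury.

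The sequences below show what the probes had to tell apart. They are RefSeq entries on the GRCr8 build, written 5′ to 3′ with the seed (bases 2 to 8) in capitals. The first is the guide arm called miR-122 on the array, the second is the opposite arm of the same hairpin, called miR-122* on the array, and the third is a miRNA annotated on the opposite strand of the same locus. miR-192 and miR-194 follow, since they are other miRNAs rich in liver that the array also read.
miR-122-5p: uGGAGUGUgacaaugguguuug
miR-122-3p: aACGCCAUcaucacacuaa
miR-3591: aACACCAUugucacacucca
miR-192-5p: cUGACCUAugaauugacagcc
miR-194-5p: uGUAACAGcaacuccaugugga

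The Mir122 hairpin lies on the plus strand of chromosome 18 at 61028817 to 61028901, with miR-122-5p at 61028831 to 61028852 and miR-122-3p at 61028867 to 61028885. miR-3591 lies on the minus strand at 61028831 to 61028850 and is the reverse complement of bases 1 to 20 of miR-122-5p. Of the 693 rat mature miRNAs in the RefSeq table, 0 others carry the miR-122-5p seed, and the closest of them differ from it by 8 edits. miR-192-5p and miR-194-5p lie close together on chromosome 1, at 212994232 to 212994252 and 212994038 to 212994059.

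Arrays were first made comparable. The background-corrected intensity of each array was scaled so that its 75th percentile over the 132 miRNAs detected on all 24 arrays was equal, with factors of 0.452 to 1.42, and values below are on that scaled intensity scale. The scanner software stated that miR-122 was detected on 9 of 24 arrays. On 4 of these both probes were detected, and on the other 5 only probe A_26_P00001313 was. The software's total adds up detected probes alone, and for each miRNA it did not detect it lists the error in place of a signal. The level used here is therefore the sum of both probes, which exists on every array. On the 15 arrays without detection this sum was 1.10 to 2.68 times the listed value (median 1.92), so the listed values lay below the measured signal on all 15.

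miR-122 stood high in the healthy, untreated rats at the first sampling time. Its summed signal was 217 on replicate 1 of NORA_T0 and 212 on replicate 2, a group mean of 7.74 ± 0.02 (log2 scale, SD, n = 2). In the arthritic rats before therapy it was 17.0 and 10.2 on the RA_T0 arrays, a mean of 3.72 ± 0.52, and neither array passed detection. Both NORA_T0 arrays lay above both RA_T0 arrays, on the same slide. The ratio of the means was 16.3-fold. Both RA_T0 sums lay above the floor of 5.76 (the median over arrays of the lowest detected intensity), so this is a ratio to measured signal near background and not a lower bound. It was 13.6-fold in the authors' table and 12.6-fold without replicate 2 of RA_T0. With the listed values in place of the summed probes the ratio would be 35.2-fold, and with another background correction (normexp with an offset of 50 added to each spot) it was 2.55-fold.

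The high level was not found in healthy rats at the later times. In NORA_1h the summed signal was 13.6 and 20.6, and only replicate 2 passed detection. In NORA_34d it was 9.28 and 8.74, with no detection. All 4 later arrays lay below both NORA_T0 arrays. By the summed probes the level was 12.8-fold lower in NORA_1h. It was 15.3-fold lower where replicate 2 entered with the software's total (14.4), which leaves out its undetected probe. In NORA_34d the level was 23.8-fold lower, again a ratio to signal without detection. NORA_34d shared a slide with NORA_T0 while NORA_1h lay on another, so slide and time cannot be told apart for the 1-hour value. Under normexp the ratios were 2.55-fold and 3.40-fold, and with the listed values 23.5-fold and 37.2-fold, and the 34-day ratio was 15.9-fold without scaling and 16.2-fold in the authors' table.

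The second group with high miR-122 was ANE_1h, the arthritic rats of the anaesthesia control sampled at 1 hour. Its 2 arrays differed more than those of any other group. The summed signal was 497 on replicate 1, the highest of the 24 arrays, and 43.1 on replicate 2, which makes them 11.5-fold apart and gives a mean of 7.19 ± 2.50 (log2, SD, n = 2). Replicate 1 was 2.32-fold above the NORA_T0 mean, and replicate 2 was 1.68-fold above the highest array outside these 2 groups. Both ANE_1h arrays lay above both RA_T0 arrays, by 11.1-fold in the means. That value rested on replicate 1, since it was 3.30-fold without replicate 1 and 37.8-fold without replicate 2. It was 24.0-fold with the listed values and 2.05-fold under normexp. ANE_1h and RA_T0 lay on different slides, and slide and group cannot be told apart between them. The other 6 arrays on the slide of ANE_1h lay between 3.53 and 15.1. By 34 days the ANE arrays were at 7.27 and 21.9, below both ANE_1h arrays.

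In the remaining groups miR-122 was near the limit of detection. In PLA_1h it was 19.5 and 25.6, and both arrays passed detection through 1 probe. These lay above both RA_T0 arrays, by 1.70-fold in the summed signal. PLA_34d stood at 14.3 and 11.3 with no detection. MTX_1h stood at 6.67 and 14.2 with no detection, and MTX_34d at 15.1 on replicate 1, which passed detection, and 5.43 on replicate 2. AP_1h stood at 4.61 and 7.71 and AP_34d at 3.53 and 5.33, with no detection, and 3 of these 4 values lay under the floor.

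**Figure D1:**
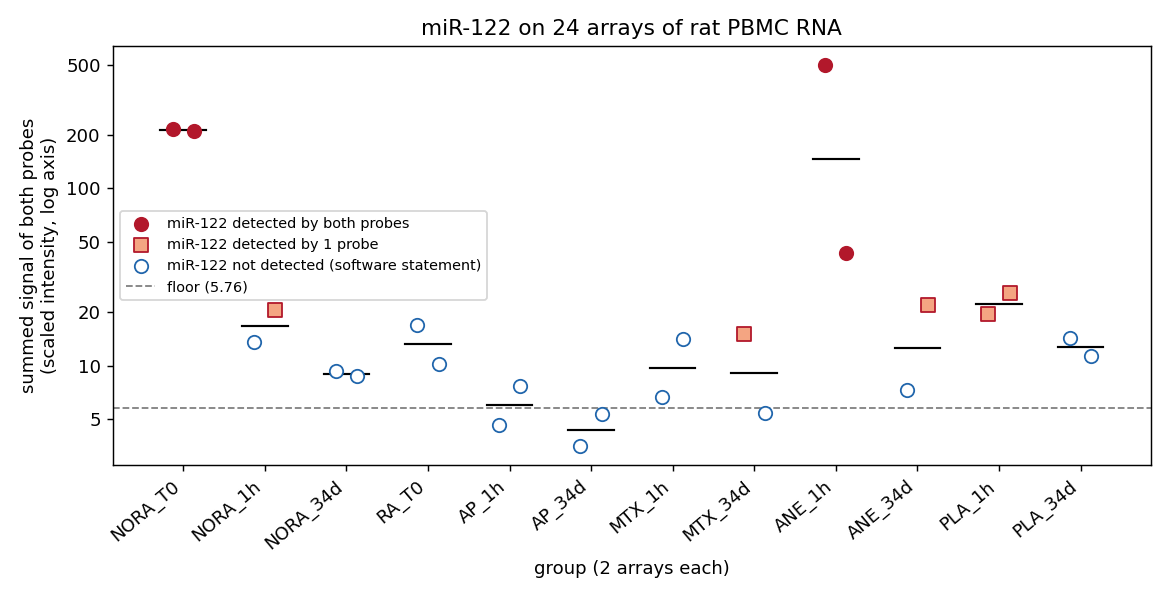
Summed signal of both miR-122 probes (scaled intensity, log axis) on each of 24 arrays, grouped by treatment and time, with replicate 1 at the left of each pair. Black bars are geometric means of 2 arrays, filled circles mark arrays on which both probes were detected, squares those on which 1 probe was, and open circles those without detection. The 2 arrays of NORA_T0 (217 and 212) and of ANE_1h (497 and 43.1) lie above the other 20 arrays, which run from 3.53 to 25.6.

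Ordered by mean, the groups ran NORA_T0 (214), ANE_1h (146), PLA_1h (22.4), NORA_1h (16.7), RA_T0 (13.1), PLA_34d (12.7), ANE_34d (12.6), MTX_1h (9.73), MTX_34d (9.06), NORA_34d (9.01), AP_1h (5.96) and AP_34d (4.34). NORA_T0 and ANE_1h overlapped, because NORA_T0 lay between the 2 ANE_1h arrays. ANE_1h did not overlap PLA_1h, and the lower NORA_T0 array was 8.28-fold above the highest array outside ANE_1h. From PLA_1h down to NORA_34d each group overlapped the next, and so did AP_1h and AP_34d. NORA_34d did not overlap AP_1h, but neither had an array with detection, so no order is read from that pair.

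On the 4 brightest arrays the 2 probes kept a narrow ratio. Probe A_26_P00001313 was the brighter of the 2 on all 24 arrays, and on the 4 arrays where both were detected it was 2.35 to 2.56 times A_26_P00001312. Between the 2 ANE_1h arrays they differed 11.4-fold (A_26_P00001312) and 11.6-fold (A_26_P00001313). In RA_T0 neither probe was detected, and A_26_P00001312 stood at 4.6 and 3.45, so ratios to it are ratios to background-level signal. With that limit the probes gave 16.0-fold and 16.5-fold for RA_T0 below NORA_T0, 10.4-fold and 11.5-fold for ANE_1h above RA_T0, and 18.5-fold and 27.1-fold for NORA_34d below NORA_T0. Among dim groups they gave 2.46-fold and 3.45-fold for AP_34d below RA_T0, and in PLA_34d against RA_T0 they differed in sign (-0.60 and 0.10 on the log2 scale). On the 4 brightest arrays the coefficient of variation over the 10 spots of a probe was 5.98% to 17.5%. The spots of an array share 1 hybridisation, so this spread is technical and gives no measure of the spread between samples.

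**Figure D2:**
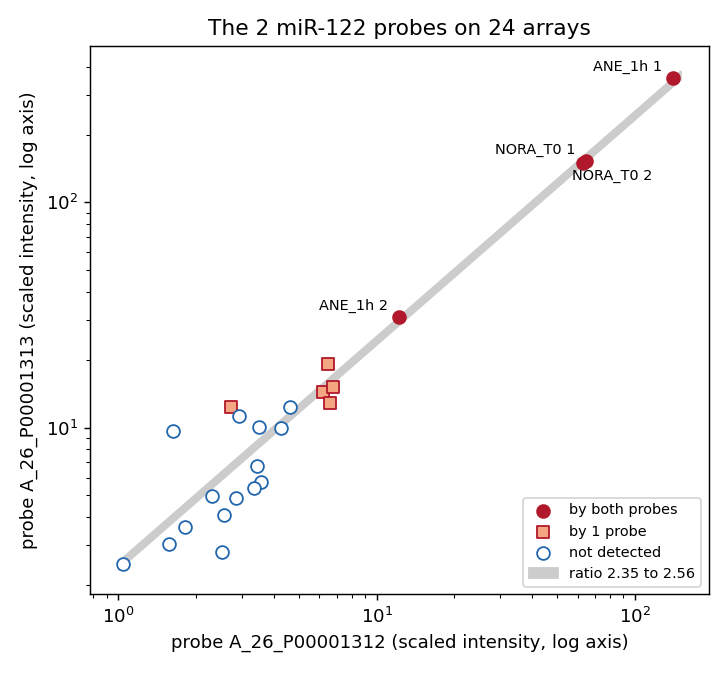
Signal of the 2 miR-122 probes against each other on 24 arrays (scaled intensity, log axes), with symbols marking whether both probes, 1 probe or neither was detected. The grey band covers ratios of 2.35 to 2.56 of A_26_P00001313 over A_26_P00001312. The 4 arrays with both probes detected lie in it, and the other 20 scatter from 1.12 to 5.92 around a median of 2.20.

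The spots show how much signal lay under the detection statement. The software marks each spot as positive and significant against its background or not. All 20 miR-122 spots were so marked on both NORA_T0 and both ANE_1h arrays and on replicate 2 of PLA_1h. On the 15 arrays without detection 7 to 18 of 20 spots were so marked, with a median of 12. For comparison, of the 8620 spots of 431 other miRNAs detected on no array, 5.49% to 19.8% were so marked per array. The highest shares were on the PLA_1h arrays, at 19.8% and 18.9%. On replicate 2 of MTX_34d, the lowest with 7 spots, 8.82% of those 431 miRNAs had as many. An array counted as positive where 10 or more of its 20 spots were so marked would give 22 of 24 arrays, and where each probe had any such spot, 24 of 24. Detection on 9 arrays thus depended on the software's rule.

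**Figure D3:**
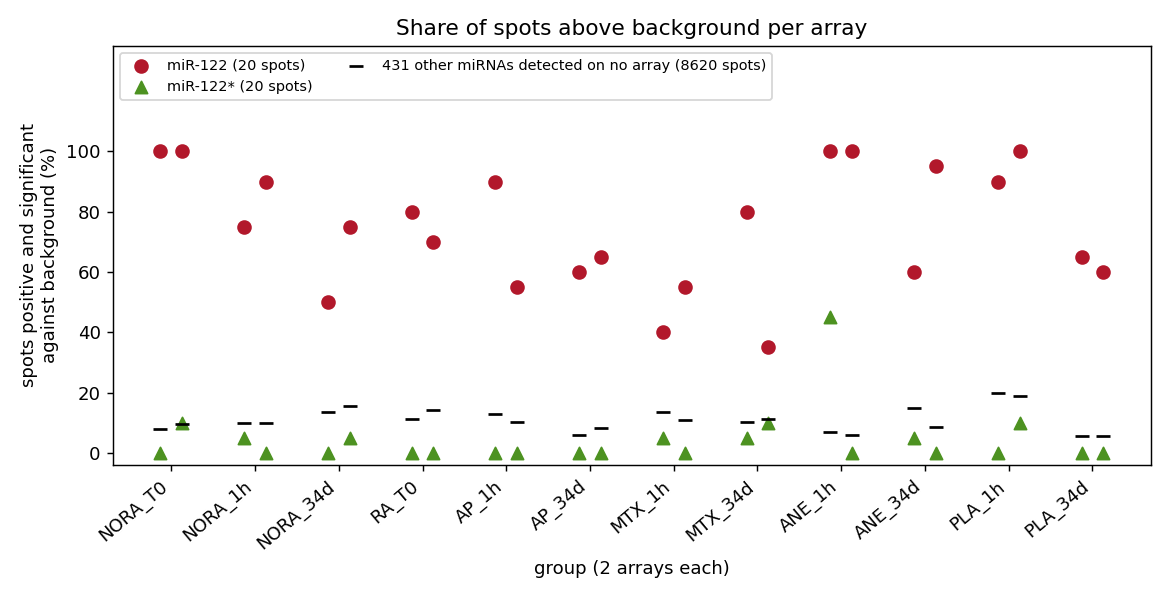
Percentage of spots marked positive and significant against background on each array, for miR-122 (circles, 20 spots), its opposite arm miR-122* (triangles, 20 spots) and 431 other miRNAs detected on no array (bars, 8620 spots). miR-122 lies at 7 to 20 of 20 spots on every array, while miR-122* reaches 9 of 20 on replicate 1 of ANE_1h and 0 to 2 on the other 23 arrays.

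Neither the opposite arm nor the opposite strand had been used to choose miR-122. miR-122*, the arm that is mostly discarded when the hairpin is processed, was detected on 0 of 24 arrays. On replicate 1 of ANE_1h, however, 9 of its 20 spots were positive and significant, with a median spot signal of 4.42. On the other 23 arrays 0 to 2 spots were, and the median signal ran from -7.89 to -1.24. That array was also the one with the highest miR-122. Of the 431 other miRNAs without detection, 13 (3.02%) had at least 9 such spots on that array, and 8 of the 9 spots came from 1 of the 2 miR-122* probes. On NORA_T0, 0 and 2 of the 20 spots were marked. miR-3591, the miRNA of the opposite strand, was detected on 0 of 24 arrays, with at most 3 of 20 spots marked.

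A list of 9 liver-rich names was read beside miR-122. miR-148a and miR-148a* are not listed on the array by name. Of the other 7, miR-192 was detected on all 24 arrays and miR-194 on 19, miR-802* was detected only on replicate 2 of PLA_1h (4.13 on the log2 scale), and miR-122*, miR-192*, miR-194* and miR-802 on none. miR-192 and the Mir194-2 copy of miR-194 are transcribed together, and both miRNAs are also expressed in intestine and kidney. Only these 2 could be tested, with limma over the 210 miRNAs detected on at least 3 arrays.

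Neither was called where miR-122 differed between groups. For RA_T0 against NORA_T0 limma called 0 of the 2, where it called 2 of 210 miRNAs (0.952%). This share and those that follow are over all 210, miR-122 included, and nothing is read from them about miR-122. miR-192 was at 5.02 ± 0.34 in RA_T0 and 4.56 ± 0.13 in NORA_T0 (log2 of the software's total, SD, n = 2), a difference of 0.46 (SE 0.30, limma adjusted p = 0.938) where miR-122 lay the other way. By its summed probes miR-192 was 38.8 and 38.3 in RA_T0 and 32.9 and 38.5 in NORA_T0, so the groups overlapped. miR-194 was at 3.87 ± 0.10 in RA_T0 and 2.98 ± 0.14 in NORA_T0, a difference of 0.89 (SE 0.33, limma adjusted p = 0.353). This difference came with the detection statement, since neither NORA_T0 array passed it. The summed probes of miR-194 were 15.6 and 21.1 in NORA_T0 against 17.0 and 18.1 in RA_T0, and fitted on them the difference was -0.05 (limma adjusted p = 1.0). Across all 24 arrays the summed miR-194 signal ran only from 13.2 to 22.0.

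The other comparisons gave the same count. In NORA_1h against NORA_T0 0 of the 2 were called (2.38% of 210), in NORA_34d against NORA_T0 0 (0.952%), and in ANE_1h against RA_T0 0 (0.476%). In ANE_1h, whose replicate 1 had the highest miR-122 of the 24 arrays, miR-192 was at 40.7 and 35.3 and miR-194 at 16.6 and 21.6 in summed signal, overlapping RA_T0. The differences were 0.23 (SE 0.30, limma adjusted p = 0.662) for miR-192 and 0.18 (SE 0.33, limma adjusted p = 0.748) for miR-194, and both changed sign under some of the alternatives given in the closing section. The 7 remaining comparisons with RA_T0 also had 0 calls among the 2. Of all miRNAs tested, 0.0% were called in AP_1h, MTX_34d, ANE_34d and PLA_34d, 1.43% in MTX_1h, 0.952% in PLA_1h and 19.0% in AP_34d. Over the 11 comparisons 6 of the 22 liver-rich tests (27.3%) had an unadjusted p under 0.05, against 267 of 2310 over all miRNAs (11.6%). Among the 6 were miR-194 in every comparison with NORA_T0 and in PLA_34d against RA_T0. In each of these 1 group had no detection of miR-194 and was listed at its error, and the comparisons with NORA_T0 shared its 2 arrays. The others were miR-192 against RA_T0 in AP_1h (-0.92, limma adjusted p = 0.238) and in MTX_34d (-0.73, limma adjusted p = 0.658). miR-192 was detected on all 24 arrays. Against RA_T0 it differed by -0.51 to -0.92 in every treated arthritic group except ANE_1h, and these comparisons share the RA_T0 arrays. Since the tests share arrays, the 2 shares are not read as a shift of the list. The study's threshold was also applied to the scaled totals used here, not to the authors' own values. It was read as more than 2-fold, an unadjusted p under 0.05 and detection on every array compared. Of the 22 tests 0 passed it, against 65 over all miRNAs (2.81%). miR-194 in PLA_34d minus RA_T0, at -1.14 (log2, limma adjusted p = 0.415), met the fold and the unadjusted p but lacked the detection. The median difference of the 2 miRNAs was 0.68 in RA_T0 against NORA_T0, beside -0.0005 over all 210, and 0.21 in ANE_1h against RA_T0, beside 0.11. On the summed probes the first was 0.03 and the second 0.04, and the list then had 1 call in the 11 comparisons, miR-192 in AP_34d, lower by 0.84 (limma adjusted p = 0.0392), where 60 of the 210 (28.6%) were called on these sums.

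**Figure D4:**
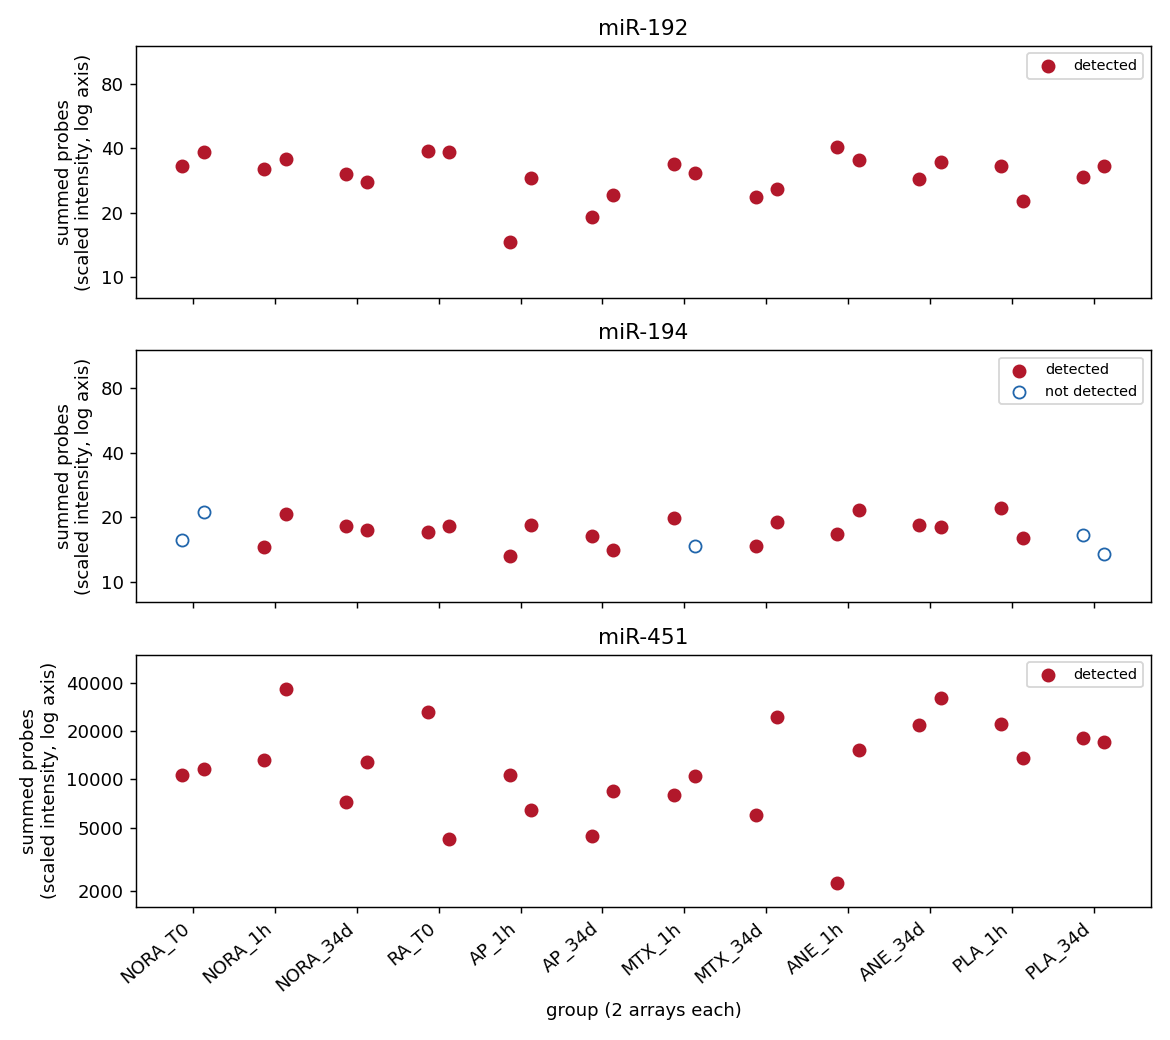
Summed probe signal (scaled intensity, log axes that differ between panels) of miR-192, miR-194 and the erythroid miR-451 on each of 24 arrays, with replicate 1 at the left of each pair and open circles for arrays without detection. miR-192 runs from 14.6 to 40.7 and miR-194 from 13.2 to 22.0, and the lowest miR-451 value (2270) is replicate 1 of ANE_1h.

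The cells of the samples were read from their own miRNAs. Nearly every blood-cell miRNA of the lists that the array carries was detected throughout the 24 arrays. These were 3 of 3 erythroid, 4 of 4 lymphocyte, 1 myeloid (miR-223) and 2 leukocyte (miR-142) members. Of the 2 platelet members miR-126 was detected on all 24 and miR-126* on 2. The erythroid miR-486 and the lymphocyte miR-155 are not listed on the array by name. In bulk RNA, fewer cells of a type and less RNA per cell cannot be told apart. Replicate 1 of ANE_1h had the lowest erythroid miR-451 of all arrays (11.15 on the log2 scale), against 13.90 on replicate 2 and 12.05 to 14.68 in RA_T0. The erythroid sum of miR-451, miR-144 and miR-144* was 11.22 on that array (log2 scale, as are the sums that follow), while the NORA_T0 arrays were at 13.48 and 13.59, in the middle of the 24. The lymphocyte sum was 12.69 and 12.83 in ANE_1h, 13.38 and 13.34 in NORA_T0 and 13.82 and 13.94 in RA_T0. Over the 24 arrays it ran from 11.10 to 13.94. From low to high the RA_T0 arrays ranked 22 and 24 of 24 and the NORA_T0 arrays 12 and 10. The ANE_1h arrays ranked 4 and 5, near the low end. A sum below both RA_T0 arrays was thus shared by most arrays and is not particular to those with high miR-122. The myeloid miR-223 was at 13.31 and 13.67 in ANE_1h, the second being the highest of all arrays. It was at 12.59 and 12.83 in NORA_T0 and 12.26 and 12.60 in RA_T0. Replicate 1 of AP_34d, with low miR-122, was at 13.57. The platelet and endothelial miR-126 was at 6.47 and 6.56 in NORA_T0 and 7.26 and 6.56 in ANE_1h, higher than in RA_T0 (6.07 and 5.89), and ran from 5.72 to 7.58 over all arrays. RA_T0 lay near the low end of that range, and most other arrays were higher too. The part of red cells, lymphocytes, myeloid cells, platelets or plasma carried over with the cells in the miR-122 values was not tested. The NORA_T0 arrays were also the most alike of all pairs, with a median absolute difference between replicates of 0.08 (log2, over 132 miRNAs), up to 0.60 in AP_1h. Their values were not identical, and they were counted as 2 samples.

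Where miR-122 was detected on both arrays of a group and neither of the other, few other miRNAs were called. Among the 209 miRNAs other than miR-122, limma called 1, miR-3593-3p, in RA_T0 against NORA_T0 and in NORA_34d against NORA_T0, and 0 in ANE_1h against RA_T0, where 38 of all 210 had an unadjusted p under 0.05. miR-3593-3p was higher by 2.09 in RA_T0 (limma adjusted p = 0.000873) and by 2.30 in NORA_34d (limma adjusted p = 0.000296), with no detection on either NORA_T0 array. Its summed probes were 19.6 and 24.8 in NORA_T0, 38.8 and 29.2 in RA_T0 and 42.0 and 36.1 in NORA_34d, so the groups did not overlap. Fitted on these sums the differences were 0.61 (limma adjusted p = 0.753) and 0.82 (limma adjusted p = 0.548), and neither passed. Like miR-194, it was listed at its error in NORA_T0, below the summed signal of its probes. In PLA_1h against RA_T0, where 1 probe carried the detection of miR-122, limma called 2 of these 209, namely let-7b*, higher in PLA_1h by 1.80 (limma adjusted p = 0.00161), and miR-3544, higher by 1.70 (limma adjusted p = 0.000653). In RA_T0 let-7b* was detected on neither array and miR-3544 on replicate 2 alone. Their summed probes were 26.0 and 19.6 against 17.5 and 20.3 for let-7b*, which overlapped, and 29.0 and 27.5 against 12.4 and 21.5 for miR-3544, which did not. On these sums neither passed (limma adjusted p = 0.740 and 0.702).

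On the software's totals no miRNA followed miR-122 closely over the 24 arrays. Among the 209 others tested, the highest Pearson r on the software's log2 totals was 0.64 for miR-145 (Spearman rho 0.38). It was 0.53 for miR-33* (rho 0.46), 0.52 for miR-3584-5p (rho 0.37), 0.44 for miR-192 (rho 0.46) and 0.35 for miR-191 (rho 0.10). Detection was the same as for miR-122 on 14, 13, 14, 9 and 9 of the 24 arrays. The points share the 2 bright groups and the scaling, so these values describe likeness only. On the summed probes r fell to 0.12 for miR-145, was 0.56 for miR-3584-5p, 0.53 for miR-192 and 0.17 for miR-191. The rho on these sums was -0.09, 0.39, 0.62 and -0.12 in the same order. miR-34b, ranked 14 on the totals, had an r of 0.54 on the sums (rho 0.45). The ranking was made on the totals only. For miR-33* it could not be computed, since its summed signal lay under the floor on every array (at most 5.02). miR-145 was detected on 1 of the 4 arrays with the highest miR-122, and miR-3584-5p on all 4, at 41.3 and 248 in NORA_T0 and 23.1 and 32.8 in ANE_1h.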

How the data were processed

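PBMC were isolated on a density gradient, and RNA of all samples was extracted in 1 batch and labelled with Cy3. The deposited scanner files hold linear intensity values that were background-corrected by the authors with Agilent Feature Extraction 10.7.3.1 (per the file headers) and not normalised between arrays. The authors also deposited a table of log2 values, for which their processing notes name RMA, and all 24 of its columns correlated best with the scanner values of their array. It was used as an alternative. Per miRNA, the software's total and detection statement and the 2 probe signals were read, and totals were scaled, floored at 5.76 (2.53 on the log2 scale) and put on the log2 scale. A model with 12 group means was fitted with limma 3.58.1 in R 4.3.3, two-sided, with Benjamini-Hochberg adjustment over 210 miRNAs, a call being an adjusted p under 0.05, and tested on simulated data. The fit used the software's totals, while miR-122 levels are summed probes. In ratios of group means, arrays with detection enter with the software's total, unless summed or single probes are named. The arrays lay on 3 slides of 8, and each group on 1 slide. No saturated spot was found. Nothing says that samples of a group came from separate animals beyond the statement of 24 blood samples. The p-values thus set differences between groups against the spread between these samples, and the number of arrays limits the precision. miR-122, the lists and the tests were chosen with earlier results of these data known. Named were miR-122, all liver-rich list members, other list members by count, and other calls where 5 or fewer. The 5 miRNAs most like miR-122 on the software's totals were also named, and miR-34b for its likeness on the summed probes. Sequences were matched by symbol for 5 of 5 miRNAs.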

Additional observations from a re-analysis of the deposited data

Results flagged for a closer look

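At 1 hour against before therapy, the differences in miR-122 did not all run one way. Both NORA_1h arrays lay below both NORA_T0 arrays, while both ANE_1h arrays lay above both RA_T0 arrays, and the 2 differences are 7.16 apart on the log2 scale of the summed probes. The same holds for PLA_1h against RA_T0, where the differences are 4.45 apart. With the software's totals on its arrays, however, PLA_1h overlapped RA_T0. In the other arthritic groups at 1 hour the differences from RA_T0 ran down, as in NORA_1h, at -0.98 in AP_1h, whose arrays lay below both RA_T0 arrays, and -0.43 in MTX_1h, which overlapped RA_T0. These differences between groups were not tested. All 1-hour groups lay on other slides than the groups before therapy.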

How the results depend on the processing

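miR-122 was detected on 9 arrays, on 22 where 10 of 20 spots had to be positive and significant and on 24 where 1 spot per probe had to be. It kept its direction in all 4 comparisons under every alternative run. RA_T0 minus NORA_T0 was -4.03, moving to -1.35 under normexp and -5.14 with listed totals on undetected arrays, an alternative chosen after seeing the data as was the use of summed probes on all arrays. NORA_1h minus NORA_T0 was -3.94, and -4.35 with the percentile over all miRNAs, -3.86 unscaled, -4.11 with the median, -4.40 with quantiles, -3.62 with mean spot signals, -1.35 under normexp, -3.73 in the authors' table, -4.56 with listed totals and -3.68 with summed probes. NORA_34d minus NORA_T0 was -4.57, and in the order of those settings -4.30, -3.99 and -4.69, then -1.77 under normexp, -4.01 in the authors' table, -4.22 with a floor 2 times as high and -5.22 with listed totals. Leaving out each array gave -4.40 to -3.66, -3.98 to -3.90, -4.62 to -4.53 and, for ANE_1h minus RA_T0 (3.48), 1.72 to 5.24.

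The 55 calls over all miRNAs became 10, 143 and 15 with the percentile over all miRNAs, no scaling and the median, 23 with quantiles, 136 under normexp, 1113 with no filter and 26 with only the arrays compared, and ran from 15 to 133 without single arrays. The 0 liver-rich calls became 1 with mean spot signals, 2 under normexp, 1 with summed probes (all in AP_34d), 13 with no filter, of which 12 were miRNAs detected on no array, and 0 to 2 without single arrays (1 without AP_1h replicate 2, 2 without MTX_1h replicate 1 and 1 without MTX_1h replicate 2). The cause of these shifts was not tested.

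miR-192 in RA_T0 against NORA_T0 turned to -0.11 under normexp, and in ANE_1h against RA_T0 to -0.10 with mean spot signals, -0.24 under normexp and -0.024 with summed probes, running from -0.015 (without RA_T0 replicate 1) to 0.47 without single arrays. miR-194 turned to -0.16 under normexp and -0.047 with summed probes in the first, where it was called with no filter (limma adjusted p = 0.033). In the second it turned to -0.050 with quantiles, -0.045 with mean spot signals and -0.26 under normexp. miR-3593-3p turned to -0.034 and -0.25 under normexp and was not called with mean spot signals (0.63 and 0.83), the authors' table (0.63 and 0.76) or summed probes. In PLA_1h against RA_T0 let-7b* turned to -0.15 and miR-3544 to -0.10 under normexp, and neither was called with the percentile over all miRNAs, mean spot signals, the authors' table, only the arrays compared or summed probes, nor let-7b* with quantiles or the higher floor.

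The replicate numbers were not taken to pair the samples. The deviations of same-numbered arrays correlated from -0.55 to 0.39 over the 11 comparisons, over 0.1 in 4 and under -0.1 in 5. With 1 pair of arrays per group this cannot exclude a shared replicate effect. With the replicate block 76 miRNAs were called over all and 0 on the list. The slide as a block could not be fitted with 12 group means and was not run. Levels near 5.76 limit what can be read in the 20 arrays outside NORA_T0 and ANE_1h.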

Other observations

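Other tissue-rich miRNAs were mostly undetected on the same arrays. Of 8 muscle-rich names on the array 7 were detected nowhere, among them miR-1, miR-133a and miR-206, while miR-1* was detected on 19 arrays. Of 6 brain-rich names 4 were detected nowhere, among them miR-124 and miR-9, with miR-138 detected on 4 arrays and miR-219-5p on 6. All 3 pancreas-rich names, miR-375 included, were detected on no array. Of 5 epithelial names only miR-141 was detected, on 4 arrays.

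Over all miRNAs on all arrays, 12046 values had no detection, and in each the software's listed total equalled its error. In 1821 of them (15.1%) the sum of the probes was larger than the listed value, as it was on all 15 arrays without miR-122 detection.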
